A study of Mus musculus with 40 samples.

Results

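The VEGF system of BAT was followed through 9 genes, 4 ligands (*Vegfa*, *Vegfb*, *Vegfc* and *Pgf*), 3 receptor tyrosine kinases (*Flt1*, *Kdr* and *Flt4*, which encode VEGFR1, VEGFR2 and VEGFR3) and the co-receptors *Nrp1* and *Nrp2*. They were picked by gene symbol out of the 20295 genes listed in the count table, and all 9 were among the 13277 genes with enough counts to be tested. VEGF ligands are secreted by many cells, brown adipocytes among them, and act on receptors that sit mainly on endothelium. VEGF-A signals chiefly through KDR and is held back by FLT1, which binds VEGF-A, VEGF-B and PlGF, whereas VEGF-C acts on FLT4 of lymphatic and some blood vessels. BAT is densely vascularized, and VEGF-A is known to maintain its capillary bed.

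BAT came from male mice housed at 29 °C, in 8 groups of 5. C-3BO mice carry a *Gpr3* transgene at the ROSA26 locus that *Ucp1*-Cre switches on in brown and beige adipocytes, so their BAT makes a receptor that raises cAMP without any ligand. Their control littermates carried either the silent *Gpr3* allele or Cre, but not both. These mice were 13 to 19 weeks old, were not injected, and received chow or a high-fat diet (HFD, 60 kcal% fat) for 7 days. The injected mice were 15 weeks old, are labelled wildtype, and were control littermates of an inducible *Gpr3* line. They received saline or the β3-adrenergic agonist CL-316,243 (CL, 1 mg/kg) daily for 9 days on chow or HFD, and on HFD the injections began 2 days before the diet changed. The paper states that their tissues were taken the day after the last CL dose, to follow chronic rather than acute effects. The 2 cohorts thus differ in handling, age and genotype, and were compared only through the effect within each. The labels do not number litters. Model p-values rest, for each gene, on an estimate of the spread between mice within groups that all 8 groups share. Exact permutation p-values use only the mice of the comparison.

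Libraries held 849126 to 15260516 counts, and levels are given as CPM, edgeR's counts relative to the library total scaled with TMM factors. A level of 3 counts corresponded to 0.206 to 3.01 CPM and covers counting error only. *Gpr3* was between 266 and 918 CPM in the 10 C-3BO libraries and at most 9.15 CPM in the other 30. All 12 brown adipocyte markers were detected in every group, and *Ucp1* was at least 1120 CPM in each library. In chow CL replicate 5 *Ucp1* was at 1640 CPM, within the 1270 to 1860 CPM of chow saline mice. The other chow CL mice had 5940 to 8990 CPM, and replicate 5 was kept in all CL comparisons on chow unless stated. In 12 libraries, all of HFD saline and HFD CL and replicates 4 and 5 of HFD C-3BO, *Alb* reached 62.2 to 294 CPM against at most 1.62 CPM in the other 28. Only these 12 held any count of *Lcn8*. Their totals, at most 7284129 counts, were below those of the other 28, at least 7349348. Skeletal muscle transcripts, summed over 10 markers, reached 946 to 11300 CPM in chow control mice and 468 to 4530 CPM in chow C-3BO mice. They summed to 6.12 to 259 CPM in HFD control, 7 to 87.9 in HFD C-3BO, 13.9 to 3010 in chow saline, 14.8 to 168 in chow CL, 22.1 to 2390 in HFD saline and 35.2 to 832 in HFD CL mice. A gene was called changed at an adjusted p under 0.05 in edgeR's quasi-likelihood test over all 13277 genes.

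The stretch of 250 bases just upstream of the transcription start is shown for the ligands *Vegfa* and *Vegfb*, which fell together in C-3BO mice, and for the receptors *Flt1* and *Kdr*, which rose together on HFD. The windows are from mm9, lie at chr17:46169327-46169576, chr19:7062142-7062391, chr5:148537588-148537837 and chr5:76374484-76374733, and are printed 5′ to 3′ on the minus strand, on which all 4 genes are transcribed. Capitals mark, on either strand, GCGTG (the core of a hypoxia-response element in one of its forms), TGACG (one arm of the cAMP-response element) and GGGCGG (the core of an Sp1 site).
Vegfa: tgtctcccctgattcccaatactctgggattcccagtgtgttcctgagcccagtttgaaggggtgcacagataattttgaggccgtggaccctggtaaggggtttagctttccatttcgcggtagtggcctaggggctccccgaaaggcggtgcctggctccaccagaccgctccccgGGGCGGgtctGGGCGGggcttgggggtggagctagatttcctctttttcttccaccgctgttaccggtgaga
Vegfb: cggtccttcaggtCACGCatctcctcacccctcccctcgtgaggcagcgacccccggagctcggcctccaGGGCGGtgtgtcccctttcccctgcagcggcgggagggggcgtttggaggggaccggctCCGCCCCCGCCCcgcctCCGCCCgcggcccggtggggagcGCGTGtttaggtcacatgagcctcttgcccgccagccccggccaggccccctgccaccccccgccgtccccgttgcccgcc
Flt1: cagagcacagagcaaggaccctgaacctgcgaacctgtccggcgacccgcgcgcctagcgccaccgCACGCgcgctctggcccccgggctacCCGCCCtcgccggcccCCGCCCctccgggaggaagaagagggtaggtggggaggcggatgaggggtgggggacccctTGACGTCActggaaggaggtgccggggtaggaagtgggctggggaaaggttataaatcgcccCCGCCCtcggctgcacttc
Kdr: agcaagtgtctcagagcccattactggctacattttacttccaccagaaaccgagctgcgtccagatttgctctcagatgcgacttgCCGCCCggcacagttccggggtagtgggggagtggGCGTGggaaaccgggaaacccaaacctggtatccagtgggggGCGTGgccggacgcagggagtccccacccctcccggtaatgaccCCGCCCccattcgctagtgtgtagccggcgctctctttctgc

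The *Flt1* window held the full palindrome TGACGTCA 81 bases before the start, which 1.96% of the windows of all 20295 genes held. GCGTG occurred 2 times each in the *Vegfb* and *Kdr* windows and once in that of *Flt1*. It was found in 6 of the 9 members' windows and in 33.9% of all windows. The other common core of the hypoxia-response element, ACGTG, was searched too and was in none of the 9 and in 18% of all. GGGCGG, on either strand, was in 8 of the 9 and in 42.3% of all. G and C made up 59.2% of the *Vegfa*, 76.4% of the *Vegfb*, 70.4% of the *Flt1* and 61.6% of the *Kdr* window, against a median of 55.2% over all windows, while the *Flt4* window, at 42.8%, lay below that median. TGACG lies within TGACGTCA, so both count the same bases. These matches describe letters only.

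Per length of counted exon, *Vegfa* was the most abundant of the 9 transcripts, with a median of 230 CPM per kb over the 40 libraries, followed by *Vegfb* with 143 and *Nrp1* with 86.6 CPM per kb. *Kdr* had 50.6, *Nrp2* 34.4 and *Flt1* 21.6 CPM per kb. *Flt4*, *Vegfc* and *Pgf* were far lower, at 3.39, 2.35 and 0.941 CPM per kb. Each gene was above the next in 34 to 40 of the 40 libraries. The closest neighbours were *Flt4* and *Vegfc*. Their order held in only 3 of 5 libraries of chow control and of chow C-3BO mice, and that of *Vegfb* and *Nrp1* in 3 of 5 of chow CL mice. In HFD CL mice the order of the lowest pair turned, *Pgf* being higher in 3 of 5, with 1.95 ± 0.719 CPM per kb (SD, n = 5) of *Pgf* and 1.84 ± 0.623 CPM per kb of *Vegfc*. *Pgf* rested on 1 to 60 and *Vegfc* on 2 to 91 counts per library, so their values carry a large counting error.

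The ligands were first compared between C-3BO and control mice, and between CL and saline, to ask how the VEGF system of BAT differs when adipocytes are driven through a Gs-coupled receptor. *Vegfb* was lower in all 4 of these comparisons and *Vegfa* in 3, whereas no member rose in any of them with all libraries in the fit.

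*Vegfa* (chromosome 17, 46153943 to 46169326 of mm9) encodes the main angiogenic ligand. In chow control mice it was at 949, 794, 683, 838 and 936 CPM in replicates 1 to 5, and in chow C-3BO mice at 661, 694, 529, 696 and 739 CPM. Of the C-3BO mice, 2 lay below every control, and the groups overlapped. The log2 fold change was -0.34 (SE 0.09, adjusted p = 0.00432). Without chow C-3BO replicate 3 it was -0.235 (adjusted p = 0.0456). The two-sided exact permutation p was 0.0317, or 0.0815 adjusted over the 72 exact tests of members. On HFD the controls had 955, 1041, 904, 927 and 866 CPM and the C-3BO mice 714, 626, 617, 646 and 655 CPM, so the highest C-3BO mouse was below the lowest control. Here the log2 fold change was -0.53 (SE 0.09, adjusted p = 2.29e-05), and without the 2 *Alb* libraries of HFD C-3BO mice the same number of members, 4, was called on HFD. The difference between the C-3BO effects on the 2 diets was -0.19 (95% interval -0.45 to 0.08, adjusted p = 0.532).

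With CL on chow, *Vegfa* was at 803, 889, 787, 794 and 854 CPM, against 924.5, 1006, 832, 968 and 964.5 CPM with saline. These groups overlapped, and the log2 fold change was -0.19 (SE 0.09, adjusted p = 0.171). On HFD, CL mice had 651, 589, 518.5, 516.5 and 462.5 CPM and saline mice 839.7, 788, 877, 811 and 758 CPM. All 5 CL mice were below all 5 saline mice, with a log2 fold change of -0.57 (SE 0.09, adjusted p = 1.43e-05). Macrophage markers summed to 427 to 995 CPM in HFD saline and 175 to 520 CPM in HFD CL mice, 4 of 10 fell and none rose, and their part in the result was not tested. HFD CL mice also had less *Vegfa* than chow CL mice (-0.59, SE 0.09, adjusted p = 1.43e-05 on the log2 scale), without overlap. The CL effect on HFD minus that on chow was -0.39 (95% interval -0.65 to -0.12), with an unadjusted p of 0.00495 but an adjusted p of 0.317. The 10 HFD libraries of this cohort all hold *Alb* transcripts and the 10 chow libraries do not, so diet and this property cannot be told apart here.

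*Vegfb* (chromosome 19, 7056962 to 7062141) encodes a ligand of FLT1 that is known for its high expression in BAT, heart and muscle. In chow control mice it was at 264, 229, 241, 311.5 and 256.5 CPM and in chow C-3BO mice at 159, 166, 183, 164 and 158 CPM. The 2 groups did not overlap, and the log2 fold change was -0.65 (SE 0.10, adjusted p = 2.94e-06). On HFD the controls had 193, 215, 201, 200 and 280.2 CPM and the C-3BO mice 185, 164, 158.5, 157 and 187 CPM, again without overlap. That fold change was -0.36 (SE 0.10, adjusted p = 0.00405) on the log2 scale.

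Saline mice on chow had 204, 229, 181, 198 and 215 CPM of *Vegfb* and CL mice 150.1, 143, 118, 129 and 131 CPM. On HFD the values were 197.5, 192, 228, 195.5 and 160.3 CPM with saline and 124, 118, 147, 125 and 123 CPM with CL. All CL mice were below all saline mice on both diets. The log2 fold changes, -0.61 (SE 0.10, adjusted p = 2.56e-05) on chow and -0.62 (SE 0.10, adjusted p = 1.45e-05) on HFD, were close to each other, and the 95% interval of their difference was -0.28 to 0.28. In all 4 comparisons the two-sided exact permutation p for *Vegfb* was 0.00794, the smallest that 5 against 5 mice can give, or 0.0301 adjusted over the 72 exact tests of members. Muscle transcripts were lower in chow CL than in chow saline mice for 9 of 10 markers. With their sum as a covariate, a fit chosen after the data were seen, *Vegfb* was still called lower with CL on chow (log2 -0.55, adjusted p = 0.000151) and in C-3BO mice on chow (-0.62, adjusted p = 5.12e-06).

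**Figure D1:**
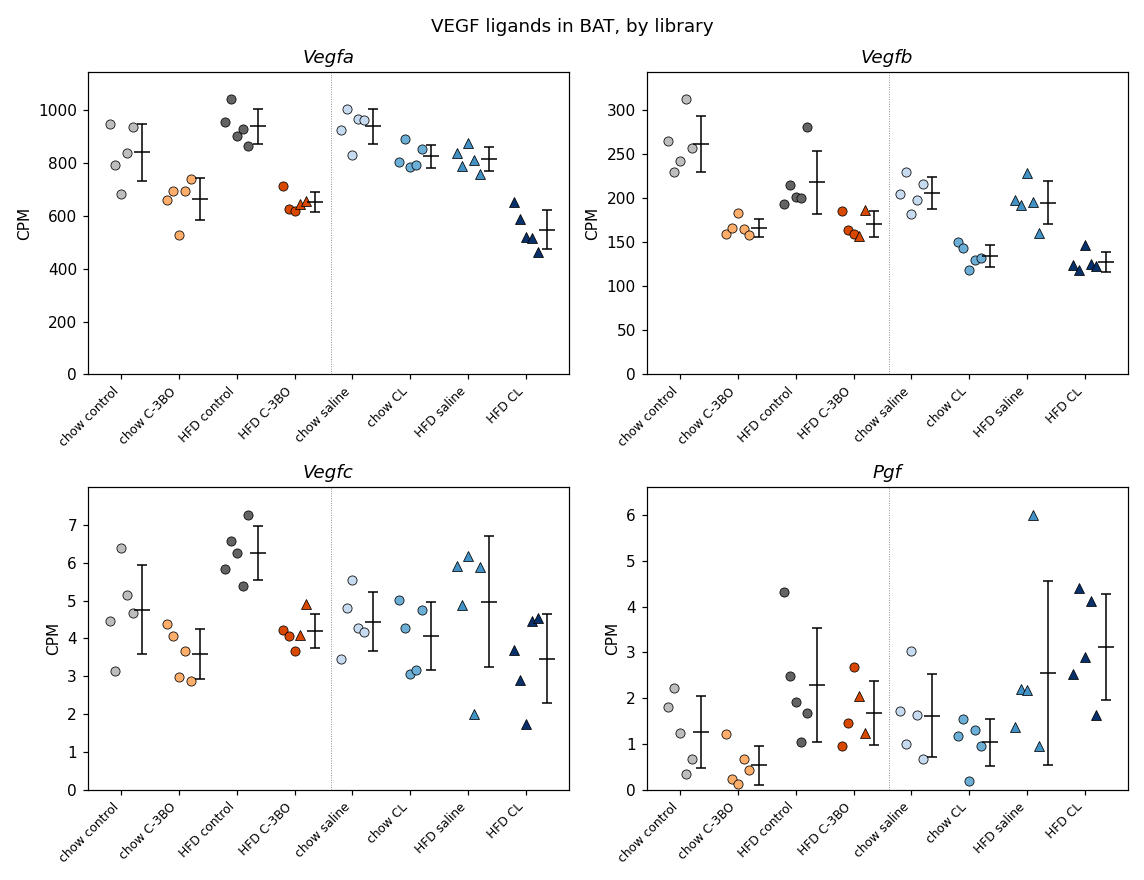
Levels of the 4 VEGF ligands in CPM (y axes, each from 0) in the 40 libraries by group (x axis). Points are libraries, triangles are the 12 with *Alb* above 10 CPM, and the black marks give mean ± SD (n = 5). *Vegfb* of C-3BO and CL mice lay below that of their controls on both diets without overlap, while *Vegfc* and *Pgf* stayed under 8 CPM.

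*Vegfc*, the ligand of FLT4, was also called lower with treatment on HFD. HFD C-3BO mice had 4.22, 4.06, 3.67, 4.08 and 4.92 CPM and HFD control mice 5.83, 6.58, 6.25, 5.40 and 7.27 CPM, without overlap (log2 -0.58, SE 0.20, adjusted p = 0.0243), though the adjusted p was 0.0588 without HFD control replicate 5 and 0.0591 without HFD C-3BO replicate 3. HFD CL mice had 3.70, 2.89, 1.75, 4.46 and 4.54 CPM and HFD saline mice 5.92, 4.88, 6.19, 2.01 and 5.87 CPM, and 1 of the CL mice lay below all saline mice. That comparison was called at -0.61 (SE 0.22, adjusted p = 0.0446), but the exact permutation p was 0.246, and the call was lost when any of 6 of the 10 libraries was left out (adjusted p up to 0.129). On chow the log2 fold changes of *Vegfc* were -0.41 (SE 0.21, adjusted p = 0.132) in C-3BO and -0.14 (SE 0.20, adjusted p = 0.702) with CL.

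*Pgf*, whose product PlGF binds FLT1 alone among the receptor kinases, did not pass the test in these comparisons. Chow controls had 1.26 ± 0.780 CPM (SD, n = 5) and their C-3BO littermates 0.530 ± 0.431 CPM (SD, n = 5), with a log2 fold change of -1.27 (SE 0.57, adjusted p = 0.088). With the muscle covariate it was called at -1.44 (adjusted p = 0.0435). On HFD its log2 fold changes were -0.45 (SE 0.48, adjusted p = 0.495) in C-3BO and 0.64 (SE 0.51, adjusted p = 0.398) with CL. Their 95% intervals, -1.41 to 0.52 and -0.39 to 1.67, are wide, and that for CL reaches well above a log2 change of 1.

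*Figf*, an older symbol of the gene for VEGF-D, another ligand of FLT4, is the VEGF-family ligand outside the 9 that was tested. Chow control mice had 5.58 ± 2.10 CPM (SD, n = 5) and chow C-3BO mice 9.79 ± 1.89 CPM (SD, n = 5). On HFD, controls had 5.13 ± 0.490 CPM (SD, n = 5) and C-3BO mice 10.2 ± 1.39 CPM (SD, n = 5). *Figf* thus rose in C-3BO mice on both diets, by 0.81 (SE 0.22, adjusted p = 0.0046) and 1.00 (SE 0.22, adjusted p = 0.000558) on the log2 scale. With CL its values were 0.44 (SE 0.21, adjusted p = 0.168) on chow and 0.10 (SE 0.23, adjusted p = 0.799) on HFD. Of the other genes in that list, which process VEGF-C, *Pcsk5*, a proprotein convertase, fell with CL on chow (-0.83) and HFD (-0.82). *Adamts3*, the protease that completes VEGF-C cleavage, rose with CL on chow (1.23) and in C-3BO mice on HFD (1.41). In all, 1 of the 6 tested genes of the list rose and 1 fell with CL on chow, and 0 and 1 did so on HFD. In C-3BO mice 3 rose and 1 fell on chow, and 2 rose and none fell on HFD.

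Read over all 9 members, CL on chow raised 0 and lowered 1, where 9.16% of all tested genes were called higher and 6.13% lower. CL on HFD lowered 3 and raised 0, against 12.7% higher and 10.8% lower. C-3BO on chow lowered 2 and raised 0, against 15.8% higher and 15.9% lower, and C-3BO on HFD lowered 4 and raised 0, against 19.3% higher and 15.5% lower. DESeq2 gave the same counts in each direction in these 4 comparisons, and the zeros stand beside 4, 5, 3 and 5 members with an unadjusted p under 0.05 in either direction. The median log2 fold change of the members was -0.23, -0.14, -0.32 and -0.36, beside medians of -0.01, -0.01, -0.03 and -0.02 over all genes. Library totals alone put the all-gene medians at -0.15, -0.15, -0.23 and -0.18, with 4, 4, 5 and 5 members lower and 0 higher, and 20.2% to 30.1% of called genes higher in place of 49.8% to 59.9%.

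**Figure D2:**
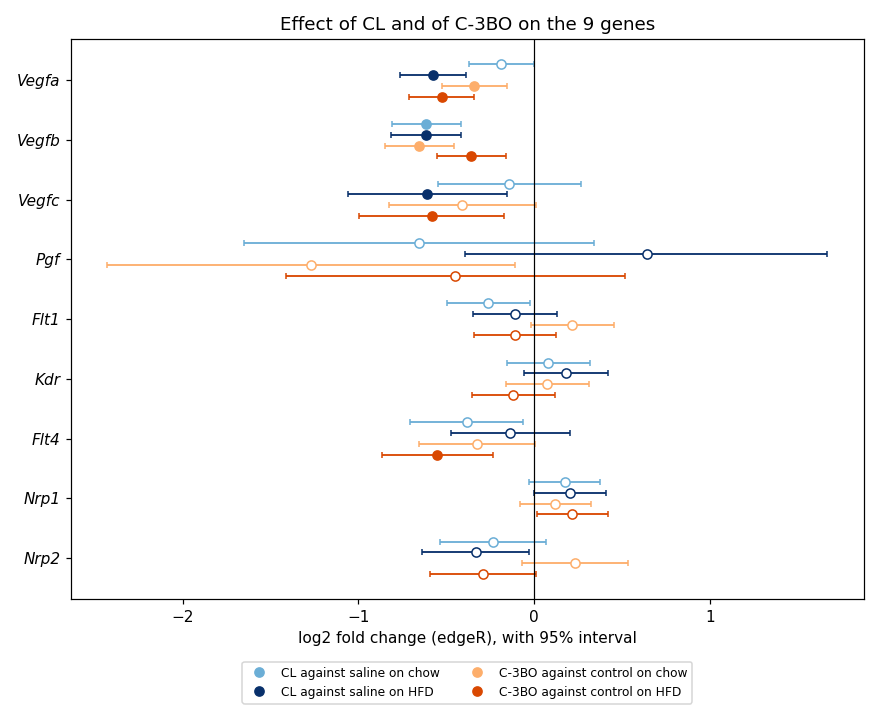
Log2 fold changes of the 9 genes (x axis) with their 95% intervals from edgeR's model, in the CL and C-3BO comparisons on chow and HFD. Filled points have an adjusted p under 0.05 over 13277 genes. All filled points lie below 0, 4 of them for *Vegfb*, 3 for *Vegfa*, 2 for *Vegfc* and 1 for *Flt4*.

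The receptor kinases were then compared between diets, to ask how the receiving side differs after 7 days of HFD. In uninjected mice *Flt1*, *Kdr* and *Flt4* all rose on HFD, by 1.91-fold, 1.74-fold and 1.96-fold in control mice and by 1.52-fold, 1.52-fold and 1.68-fold in C-3BO mice. In injected mice the changes were smaller, and none was called with saline. As these are bulk samples, more cells of a type and more RNA per cell cannot be told apart.

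*Flt1* (chromosome 5, 148373772 to 148537564) encodes VEGFR1, which exists as a membrane and a soluble form that counts per gene do not separate. Chow control mice had 113.5, 110.2, 80.3, 99.4 and 134 CPM and HFD control mice 190.2, 224, 231, 191 and 191 CPM. In C-3BO mice it went from 136.5, 130.2, 76.9, 139.6 and 141.5 CPM on chow to 181, 198, 180, 198 and 195 CPM on HFD. The diets did not overlap in either genotype, with log2 fold changes of 0.94 (SE 0.12, adjusted p = 1.5e-07) in control and 0.61 (SE 0.12, adjusted p = 0.000194) in C-3BO mice. Chow C-3BO replicate 3 stood far below the other 4 of its group. Without it the change in C-3BO mice was 0.45 (adjusted p = 0.00123).

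*Kdr* (chromosome 5, 76329299 to 76374453) encodes VEGFR2, the main signalling receptor for VEGF-A. It was at 234, 226.5, 181, 201 and 284 CPM in chow control and 415, 406, 381, 391.5 and 359 CPM in HFD control mice. In C-3BO mice it was at 259.6, 267, 141, 271 and 249 CPM on chow and 352, 379.8, 359, 362 and 347 CPM on HFD, with replicate 3 of chow again the lowest. Every HFD library was above every chow library of its genotype, and the log2 fold changes were 0.80 (SE 0.12, adjusted p = 2.29e-06) and 0.60 (SE 0.12, adjusted p = 0.000255).

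*Flt4* encodes VEGFR3, the receptor for VEGF-C and VEGF-D. Its level rose from 15.8, 21.9, 12.7, 13.3 and 19.2 CPM to 39.3, 35.9, 31.3, 24.0 and 31.5 CPM in control mice and from 11.3, 14.4, 8.48, 17.6 and 13.9 CPM to 22.7, 20.1, 20.9, 20.8 and 26.4 CPM in C-3BO mice. Neither pair of groups overlapped, with log2 fold changes of 0.97 (SE 0.16, adjusted p = 6.98e-06) and 0.75 (SE 0.17, adjusted p = 0.000829).

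**Figure D3:**
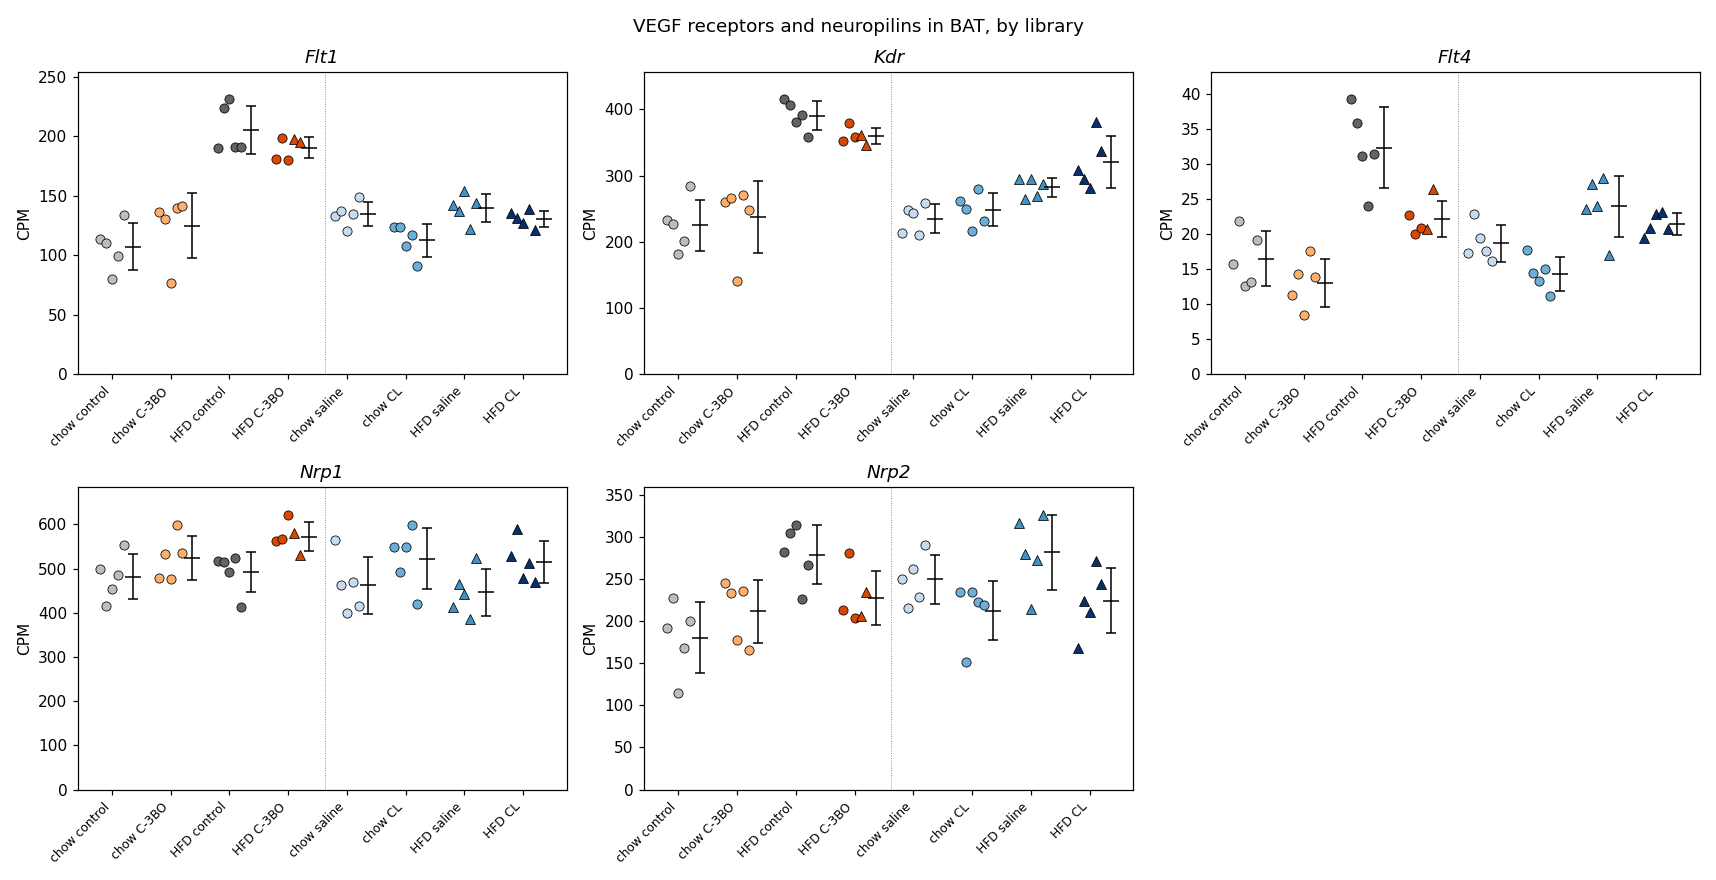
Levels of the 5 receptor genes in CPM (y axes, each from 0) by group (x axis), with points, triangles and mean ± SD (n = 5) as for the ligands. *Flt1*, *Kdr* and *Flt4* of HFD control and HFD C-3BO mice lay above those of the chow groups of the same genotype, and chow C-3BO replicate 3 was the lowest of all 40 libraries for each of these 3 receptors.

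In the injected mice *Flt1* had similar ranges on both diets, 121 to 149 CPM in chow saline and 122 to 154 CPM in HFD saline mice, with a log2 fold change of 0.06 (SE 0.12, adjusted p = 0.789). In CL mice it was 0.21 (SE 0.12, adjusted p = 0.19). *Kdr* was at 213, 248, 243, 210.4 and 259 CPM in chow saline and 295.5, 264, 294.5, 269.7 and 287 CPM in HFD saline mice. Every HFD mouse was higher, yet the change of 0.27 (SE 0.12, adjusted p = 0.122) on the log2 scale did not pass over all genes. Its exact permutation p was 0.00794, or 0.0301 adjusted over the 72 exact tests of members. In CL mice *Kdr* rose from 262, 250, 217, 280.4 and 232 CPM to 308, 295, 282, 381 and 337 CPM, by 0.37 (SE 0.12, adjusted p = 0.0202), though leaving out chow CL replicate 3 or HFD CL replicate 4 took its adjusted p to 0.0593 or 0.0812. *Flt4* had 14.4 ± 2.44 CPM (SD, n = 5) in chow CL and 21.5 ± 1.60 CPM (SD, n = 5) in HFD CL mice, a rise of 0.58 (SE 0.16, adjusted p = 0.00844), and 0.33 (SE 0.16, adjusted p = 0.166) in saline mice. The diet effects in the 2 cohorts were not tested against each other. All HFD libraries of injected mice held *Alb* above 10 CPM and no chow library did. Diet and this property cannot be told apart in these mice.

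Endothelial transcripts moved in the same comparisons. Of 18 blood endothelial markers, 15 rose on HFD in control mice, 16 in C-3BO mice, 7 in saline mice and 16 in CL mice, and none fell. Their sum ran from 1290 to 1830 CPM in chow control and from 2170 to 3080 CPM in HFD control mice. It was 752 to 1430 CPM in chow C-3BO and 1780 to 1990 CPM in HFD C-3BO mice, with the 752 in replicate 3. In saline mice it was 1440 to 1690 CPM on chow and 1800 to 2120 CPM on HFD, and in CL mice 1210 to 1600 and 2140 to 2790 CPM. Of 11 mural cell markers 9 rose and 1 fell on HFD in control mice, and 6 rose and 1 fell in C-3BO mice. Markers of lymphatic endothelium summed to only 3.97 to 19.4 CPM over all libraries, and none of 4 tested was called by edgeR or DESeq2 in any comparison, with at most 1 at an unadjusted p under 0.05 in edgeR. The part of these cells in the receptor changes was not tested.

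Set against the mean log2 CPM of these 18 markers, *Flt1* was higher by 0.84 ± 0.23 (SD, n = 5) in chow control and by 1.13 ± 0.19 in HFD control mice. For *Kdr* this difference was 1.91 ± 0.23 and 2.06 ± 0.18, and for *Flt4* -1.85 ± 0.27 and -1.54 ± 0.16. In C-3BO mice the difference for *Flt1* was 1.39 ± 0.03 on chow and 1.40 ± 0.09 on HFD, and for *Kdr* 2.31 ± 0.09 and 2.32 ± 0.10. Chow C-3BO replicate 3, low in both receptors, was thus not low relative to endothelial markers, since the *Flt1* difference in its group spanned 1.36 to 1.44. In saline mice the *Flt1* difference was 1.21 ± 0.18 on chow and 0.87 ± 0.17 on HFD, thus smaller on HFD. In CL mice it was 1.03 ± 0.255 on chow and 0.58 ± 0.15 on HFD, the smallest of any group. The *Kdr* difference was 2.00 ± 0.09 and 1.88 ± 0.13 in saline mice, and 2.17 ± 0.14 and 1.86 ± 0.05 in CL mice. For *Flt4* it was -1.64 ± 0.13 and -1.68 ± 0.22 in saline mice, and -1.93 ± 0.30 and -2.02 ± 0.13 in CL mice. Within groups, over 40 libraries, the correlation with the endothelial mean was 0.75 for *Kdr*, 0.64 for *Flt4*, 0.58 for *Flt1* and -0.12 for *Nrp1*. For *Nrp2* it was 0.31, and for the ligands *Vegfa*, *Pgf*, *Vegfc* and *Vegfb* it was 0.50, 0.43, 0.17 and 0.02. These libraries share depth and scaling, and the values are given as a description.

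**Figure D4:**
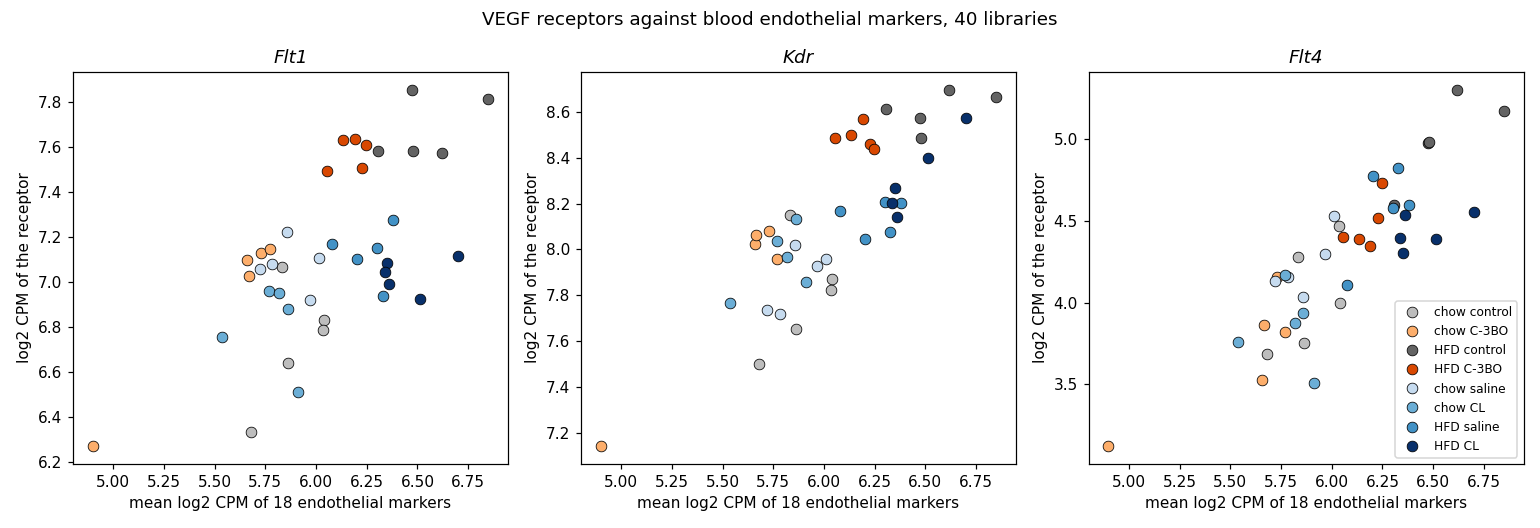
Log2 CPM of *Flt1*, *Kdr* and *Flt4* (y axes) against the mean log2 CPM of 18 blood endothelial markers (x axes), with 1 point per library and colour by group. Every HFD library lies to the right of every chow library, chow C-3BO replicate 3 lies alone at the lower left, and for *Flt1* the HFD CL libraries lie low for their endothelial level.

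Muscle transcripts differed between the diets in uninjected mice, where all 10 markers fell on HFD in both genotypes. With their sum as a covariate, *Flt1*, *Kdr* and *Flt4* were still called higher on HFD in control mice (1.08, 0.72 and 0.94 on the log2 scale) and in C-3BO mice (0.72, 0.54 and 0.72). In control mice 2 other calls were lost. *Nrp2*, which had risen on HFD in control mice from 114 to 227.5 CPM to 226 to 314 CPM (log2 0.63, SE 0.15, adjusted p = 0.00116), came to 0.45 (adjusted p = 0.144). *Vegfb*, which had been called lower (-0.26, SE 0.10, adjusted p = 0.0344) although the groups overlapped, came to -0.08 (adjusted p = 0.745), and it also lost its call without any of 6 single libraries (-0.19 without chow control replicate 4).

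*Pgf* rose on HFD in C-3BO mice, from 1.21, 0.232, 0.119, 0.664 and 0.430 CPM to 0.952, 1.47, 2.69, 2.04 and 1.23 CPM, by 1.69 (SE 0.58, adjusted p = 0.0283) on the log2 scale. It rose in CL mice as well, from 1.18, 1.54, 0.185, 1.30 and 0.950 CPM to 2.52, 4.41, 2.91, 4.13 and 1.64 CPM without overlap, by 1.60 (SE 0.49, adjusted p = 0.0159). In C-3BO mice the groups overlapped, and the adjusted p was 0.387 with the muscle covariate, 0.0621 without the 2 *Alb* libraries of HFD C-3BO, and between 0.0519 and 0.0934 without any of 5 single libraries. In CL mice it was 0.0501 without HFD CL replicate 2, and there diet cannot be told apart from the *Alb* transcripts that all HFD libraries held. In control mice the log2 value was 0.87 (SE 0.47, adjusted p = 0.158), and it was -0.08 (adjusted p = 0.959) with the muscle covariate. In saline mice it was 0.31 (SE 0.51, adjusted p = 0.745), where replicate 4 of HFD, the shallowest library, had 6 counts of *Pgf*, or 6.02 CPM. *Vegfa* on HFD was 0.16 (SE 0.09, adjusted p = 0.184) in control, -0.03 (SE 0.09, adjusted p = 0.872) in C-3BO and -0.21 (SE 0.09, adjusted p = 0.127) in saline mice.

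Over the 9 members, HFD raised 4 and lowered 1 in control mice, where 15.4% of all tested genes were called higher and 17.5% lower. In C-3BO mice it raised 4 and lowered 0, against 13.5% higher and 12.2% lower. In CL mice it raised 3 and lowered 1, against 10.9% higher and 12.7% lower. In saline mice none was called by edgeR or DESeq2, against 7.45% higher and 8.04% lower, although 3 had an unadjusted p under 0.05 in edgeR. In C-3BO mice, where none was called lower, 4 had an unadjusted p under 0.05, all of them higher, and DESeq2 gave the same counts. The members' median log2 fold change was 0.63 in control, 0.22 in C-3BO, 0.18 in saline and 0.08 in CL mice, beside 0, 0.03, -0.01 and -0.01 over all genes. Library totals alone put the all-gene medians between 0.15 and 0.21, and called 6 members higher and 0 lower in control mice, 5 and 0 in C-3BO, 2 and 0 in saline and 4 and 1 in CL mice. *Vegfb* in control mice was then not called (-0.11, adjusted p = 0.459). The newly called members, all higher, were *Vegfa* (0.32, adjusted p = 0.0136) and *Vegfc* (0.55, adjusted p = 0.0382) in control mice, *Nrp1* (0.30, adjusted p = 0.0224) in C-3BO mice, *Kdr* (0.44, adjusted p = 0.0156) and *Flt4* (0.50, adjusted p = 0.0427) in saline mice, and *Flt1* (0.39, adjusted p = 0.0187) in CL mice.

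**Figure D5:**
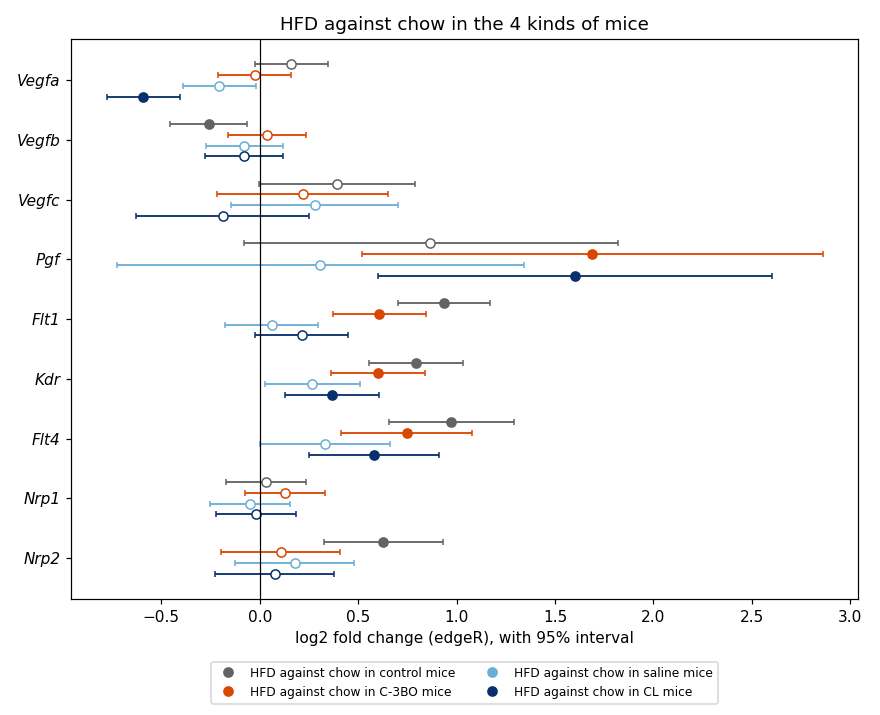
Log2 fold changes of HFD against chow (x axis) with 95% intervals for the 9 genes in control, C-3BO, saline and CL mice. Filled points have an adjusted p under 0.05 over 13277 genes. *Flt1*, *Kdr* and *Flt4* are filled and above 0 in control and C-3BO mice, and *Vegfa* is filled and below 0 in CL mice alone.

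Of the receptor kinases, *Flt4* alone was called in a comparison of CL or C-3BO with its control. On HFD it was lower in C-3BO mice (22.2 ± 2.56 CPM, SD, n = 5) than in controls (32.4 ± 5.75 CPM, SD, n = 5), 4 of 5 C-3BO mice being below all controls, with a log2 fold change of -0.55 (SE 0.16, adjusted p = 0.00562). For *Flt1* and *Kdr* on HFD the log2 fold changes in C-3BO mice were -0.11 (SE 0.12, adjusted p = 0.487) and -0.12 (SE 0.12, adjusted p = 0.462). In the same comparison 13 of the 18 endothelial markers fell and none rose. On chow 7 fell and none rose, while *Flt1* and *Kdr* had log2 fold changes of 0.22 (SE 0.12, adjusted p = 0.152) and 0.08 (SE 0.12, adjusted p = 0.656). Without replicate 3 of chow C-3BO these became 0.38 (adjusted p = 0.00328) and 0.25 (adjusted p = 0.0438), and the members called were then 2 higher and 2 lower, in place of 0 and 2. With CL, 0 endothelial markers rose and 3 fell on chow, while 3 rose and 0 fell on HFD. The log2 fold changes with CL were -0.26 (SE 0.12, adjusted p = 0.126) on chow and -0.11 (SE 0.12, adjusted p = 0.565) on HFD for *Flt1*, 0.08 (SE 0.12, adjusted p = 0.702) and 0.18 (SE 0.12, adjusted p = 0.283) for *Kdr*, and, for *Flt4*, -0.38 (SE 0.16, adjusted p = 0.0974) and -0.14 (SE 0.17, adjusted p = 0.61).

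Whether the effects themselves differed was tested with 4 contrasts of effects, and no member was called in any of them by edgeR or by DESeq2. When the C-3BO effects on HFD and chow were subtracted, 2.09% of all genes were called, and 2 members had an unadjusted p under 0.05. These were *Nrp2* (-0.52, 95% interval -0.95 to -0.09) and *Vegfb* (0.30, 0.02 to 0.57). Without chow C-3BO replicate 3, *Flt1* was called there at -0.49 (adjusted p = 0.037). For CL the same contrast called 0.0151% of genes, and *Vegfa* alone had such a p. When the effect of CL was taken from that of C-3BO, both on chow, 6.24% of genes were called. *Flt1* came closest, with a difference of 0.48 (95% interval 0.15 to 0.81, adjusted p = 0.0726), and it was called without chow C-3BO replicate 3, chow control replicate 5 or chow saline replicate 3, singly. *Nrp2* was the other, at 0.46 (95% interval 0.04 to 0.89). On HFD 1.8% of genes were called and no member had an unadjusted p under 0.05. There the intervals were -0.22 to 0.31 for *Vegfa* and -0.02 to 0.54 for *Vegfb*, so the 2 treatments were not shown to act alike.

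The neuropilins, which bind VEGF together with the kinases and also bind class 3 semaphorins, were not called in any comparison of CL or C-3BO with its control. *Nrp1* lay between 385 and 622 CPM in all 40 libraries and passed in none of the 8 comparisons. In HFD C-3BO mice it was at 562, 567, 622, 581 and 531 CPM, above all HFD control mice at 517, 514, 492, 523 and 414 CPM, but the log2 fold change of 0.22 (SE 0.10, adjusted p = 0.0872) did not pass over all genes. The exact permutation p was 0.00794, or 0.0301 adjusted over 72 tests. *Nrp1* was 0.12 (SE 0.10, adjusted p = 0.374) in C-3BO on chow, 0.18 (SE 0.10, adjusted p = 0.25) with CL on chow and 0.21 (SE 0.10, adjusted p = 0.142) with CL on HFD. *Nrp2* was -0.29 (SE 0.15, adjusted p = 0.128) in C-3BO on HFD, -0.33 (SE 0.15, adjusted p = 0.108) with CL on HFD and -0.23 (SE 0.15, adjusted p = 0.32) with CL on chow, and in C-3BO on chow it was 0.23 (SE 0.15, adjusted p = 0.243).

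Of 11 tested class 3 semaphorins and plexins, their partners at the neuropilins, 1 rose and 4 fell in C-3BO mice on chow and likewise on HFD, and 2 rose and 3 fell with CL on HFD. With CL on chow none was called by edgeR or DESeq2, and 1 had an unadjusted p under 0.05 in edgeR. Counts of this list and of those below are to be read beside the shares of all tested genes given above with the members. *Plxna1*, a plexin, fell in C-3BO mice with log2 fold changes of -0.63 (SE 0.13, adjusted p = 0.000297) on chow and -1.23 (SE 0.13, adjusted p = 3.54e-09) on HFD, and *Sema3b* with -0.65 (SE 0.19, adjusted p = 0.00918) and -1.49 (SE 0.21, adjusted p = 9.29e-07). Both fell with CL on HFD too, with -0.74 and -1.43. On HFD in control mice 6 rose, among them *Plxnd1* (0.78), an endothelial plexin, and *Sema3g* (1.06), and 1 fell.

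Other genes of the pathway are given as lists by known role. Of 30 genes of VEGF receptor signalling and endothelial response, 13 rose on HFD in control mice, 12 in C-3BO mice, 7 in saline mice and 12 in CL mice, while 0, 0, 2 and 2 fell. Among them were *Cdh5*, the endothelial cadherin (0.77, SE 0.14, adjusted p = 4.37e-05 in control mice), and *Aplnr*, the apelin receptor (1.08, SE 0.20, adjusted p = 7.48e-05). In C-3BO mice 1 rose and 8 fell on chow, and 2 rose and 11 fell on HFD. *Nr4a1*, an immediate early gene that VEGF is 1 of several signals to induce, fell in all 4 treatment comparisons. Its log2 fold changes were -3.63 (SE 0.55, adjusted p = 3.8e-06) and -2.98 (SE 0.56, adjusted p = 6.11e-05) in C-3BO mice. With CL, in tissue taken the day after the last dose, they were -2.28 (SE 0.49, adjusted p = 0.00114) and -2.80 (SE 0.56, adjusted p = 0.000321). The signal and the cells behind this fall were not tested. With CL, 2 rose and 4 fell on chow, and 8 rose and 2 fell on HFD.

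Among the angiopoietins and Tie receptors, *Angpt1*, the TIE2 agonist that stabilizes vessels, fell in all 4 treatment comparisons. Chow control mice had 54.5 ± 6.26 CPM (SD, n = 5) and chow C-3BO mice 32.9 ± 5.10 CPM (SD, n = 5), while HFD saline mice had 65.2 ± 9.16 CPM (SD, n = 5) and HFD CL mice 41.5 ± 6.33 CPM (SD, n = 5). Its log2 fold changes were -0.73 and -0.81 in C-3BO mice and -0.48 and -0.66 with CL. *Tek* and *Tie1*, the receptors, rose on HFD in each of the 4 kinds of mice, with 0.83 and 1.02 in control mice. Both, like *Cdh5*, are also among the 18 endothelial markers. Of the 6 tested genes of the list, 4 rose and none fell on HFD in control mice.

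Of 14 tested other angiogenic growth factors, 2 rose and 5 fell in C-3BO mice on chow, 3 rose and 5 fell in C-3BO mice on HFD, 1 rose and 1 fell with CL on chow, and 2 rose and 4 fell with CL on HFD. *Fgf1* fell in C-3BO mice from 87.9 ± 17.2 CPM (SD, n = 5) to 12.5 ± 3.90 CPM (SD, n = 5) on chow and from 78.2 ± 12.2 CPM (SD, n = 5) to 15.9 ± 7.18 CPM (SD, n = 5) on HFD. With CL it fell on HFD (-1.32, SE 0.32, adjusted p = 0.00218), and on chow it was 0.06 (SE 0.29, adjusted p = 0.921). *Pdgfd* fell in all 4 treatment comparisons, with log2 fold changes of -1.72 and -1.28 in C-3BO mice and -0.59 and -0.91 with CL. *Apln*, the apelin gene and a marker of sprouting endothelium, rose with CL from 5.24 ± 0.889 CPM (SD, n = 5) to 12.9 ± 7.76 CPM (SD, n = 5) on chow and from 12.2 ± 7.24 CPM (SD, n = 5) to 38.3 ± 7.18 CPM (SD, n = 5) on HFD. Of 11 inhibitors of angiogenesis, 5 fell in C-3BO mice on chow and 4 on HFD, and with CL 1 fell on chow while 1 rose and 4 fell on HFD. *Timp3*, an inhibitor of metalloproteinases that also blocks KDR, fell with CL on chow (-0.65) and HFD (-0.61) and in C-3BO mice on chow (-0.34) and HFD (-0.62).

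Across the 40 libraries the receptor kinases varied together. The correlation of log2 CPM between *Flt1* and *Kdr* was 0.87, and 0.80 once group means were removed. Between *Vegfa* and *Vegfb* it was 0.58, and 0.11 without group means. Between *Vegfa* and *Flt1* it was 0.19, but 0.64 without group means, and between *Vegfa* and *Kdr* it was -0.04, but 0.48. By the size of the correlation over all tested genes, *Itpkb*, *Arhgef15* and *Arhgap31* were most like *Kdr* (0.91 each, and 0.83, 0.74 and 0.80 without group means). *Jam2*, *Itpkb* and *Arhgap31* were most like *Flt1* (0.89, 0.88 and 0.88, and 0.72, 0.80 and 0.83 without group means), and *Dock6*, *Pcdh1* and *Mmrn2* most like *Flt4* (0.89 each, and 0.74, 0.75 and 0.68). Those most like *Vegfa* were *Sun2* (0.86), *Max* (0.84) and *Tspyl2* (0.83), but without group means they had 0.35, 0.57 and 0.35, and among those most like *Vegfb* were *Anapc5* (0.86) and *Cltb* (0.845). The gene most like *Vegfc* was *Dmwd* (0.76), like *Pgf* *Ggta1* (0.77), like *Nrp1* *Rbm47* (0.75) and like *Nrp2* *Abca3* (0.81). The libraries share treatments and depth, so these values are descriptions.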

How the data were processed

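Poly(A) RNA of BAT from 40 mice was sequenced on an Illumina HiSeq from TruSeq libraries. The authors mapped reads to mm9 with STAR, used HOMER, and counted reads on RefSeq exons with iRNA-seq. The deposited values are raw counts per gene, not normalized, with the exon bases counted. Versions and strandedness are not given in the sources used here. *Nrp1* exons overlap *Mir1903* on the same strand.

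Groups followed the labels. Counts were fitted with edgeR 4.0.16 (R 4.3.3), 1 mean per group, TMM factors, filterByExpr (minimum count 10) and Benjamini-Hochberg adjustment over 13277 genes. A fold threshold was not used. The SE is the log2 fold change divided by the root of F. Log2 CPM used a prior count of 2. Members were also compared by exact permutation, two-sided. The edgeR and DESeq2 fits were tried on simulated counts for 1 comparison, C-3BO against control on HFD. The other steps were not. The alternatives were DESeq2 1.42.0, library totals, RLE factors, other filters, the libraries of a comparison alone, a replicate block, libraries left out, and a muscle covariate, which was added after the data were seen. All 9 members were named in every group. Of each list, at most 4 genes with the lowest adjusted p per comparison were named, and at most 3 genes most like a member. The members and lists were chosen with earlier results of these data known. Windows were read from the mm9 genome, upstream of the first start in GENCODE or the table, and hold no annotated exon.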

Additional observations from a re-analysis of the deposited data

Results flagged for a closer look

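In 7 of the 72 sets of 5 libraries (9 genes in 8 groups), 1 library stood apart from the other 4 by Dixon's ratio above 0.71. Chance alone marks about 1 set in 20. *Flt1* at 76.9 CPM and *Kdr* at 140.9 CPM in chow C-3BO replicate 3 lay below the other 4 (130.2 to 141.5 and 248.8 to 270.8 CPM), and the endothelial sum was also lowest there (752 CPM). *Vegfb* at 280.2 CPM and *Nrp1* at 413.7 CPM in HFD control replicate 5 were the highest and the lowest of their group (others 192.9 to 214.6 and 492.1 to 523.4 CPM). *Vegfb* was also high in HFD CL replicate 3, at 146.6 CPM against 118.3 to 125.1 CPM. *Nrp2* at 151.3 CPM was low in chow CL replicate 2, against 218.9 to 234.9 CPM. *Pgf* at 6.02 CPM in HFD saline replicate 4 rests on 6 counts in the shallowest library, against 0.953 to 2.2 CPM in the others.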

How the results depend on the processing

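Of the 72 member values in the 8 comparisons, 23 were called. In 187 fits of these with other settings, 177 kept the call and direction, and in 230 fits with 1 library left out 208 did. None of the called values turned. In the treatment comparisons the calls that were lost concerned *Vegfc* alone, with CL and in C-3BO mice, both on HFD. Between HFD and chow they concerned *Vegfb* and *Nrp2* in control mice, *Pgf* in C-3BO and CL mice, and *Kdr* in CL mice. The cause was not tested.

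Library totals without TMM put the median of all genes between -0.15 and -0.23 with treatment and between 0.15 and 0.21 with HFD. The share of higher among called genes went from 49.8% to 59.9% in the treatment comparisons to 20.2% to 30.1%, and from 46.1% to 52.6% with HFD to 71.3% to 84.7%. Members called became 4 (all lower) with CL on chow, 5 (all lower) in C-3BO on chow and 2 (both higher) on HFD in saline mice. Values that changed sign, none of them called, were *Kdr* with CL (-0.0655) and C-3BO (-0.11) on chow, *Nrp1* in C-3BO on chow (-0.0731), *Vegfa* on HFD in C-3BO mice (0.15), *Vegfb* on HFD in saline (0.0937) and CL mice (0.0903), and *Nrp1* on HFD in saline (0.12) and CL mice (0.15). With a minimum of 10 counts, *Nrp1* on HFD came to -0.00646 in control and 0.0111 in CL mice, and in CL mice to 0.00467 with DESeq2 and 0.00444 with RLE factors. The muscle covariate, added after the data were seen, left 3 members called on HFD in control mice and turned *Pgf* there (-0.0815), and in C-3BO mice *Vegfa* (0.00920) and *Nrp2* (-0.0408).

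With libraries left out singly, C-3BO on chow called 2 to 4 members, the C-3BO contrast of diets 0 to 1, and C-3BO minus CL on chow 0 to 1. On HFD, *Nrp1* ranged from -0.0177 to 0.0841 in control, from -0.105 to 0.0435 in saline and from -0.0891 to 0.0348 in CL mice. *Vegfa* ranged from -0.126 to 0.0142 and *Nrp2* from -0.0039 to 0.164 in C-3BO mice, and *Nrp2* from -0.0247 to 0.162 in CL mice. Same-numbered mice did not all deviate together (mean correlation -0.14 to 0.17, no comparison with all 5 pairs above 0.1). The highest mean was that of C-3BO against control on chow, with 3 of 5 pairs above 0.1. Pairing by number was thus not shown, but these correlations cannot exclude it. With the replicate block 2 members were called with CL on HFD in place of 3, and the other counts were equal.

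Depth limits *Pgf* and *Vegfc*, which rest on few counts, most of all in the library of 849126 counts.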

Other observations

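Genes that act on *Vegfa* transcription were examined as a list of 18, of which 16 were tested. In C-3BO mice 3 rose and 1 fell on chow, and 4 rose and 1 fell on HFD. Of all tested genes 15.8% rose and 15.9% fell in C-3BO mice on chow, and 19.3% and 15.5% on HFD. *Hif1a*, a subunit of the hypoxia-inducible factor, rose in C-3BO mice by 0.51 (SE 0.11, adjusted p = 0.000626) on chow and 0.71 (SE 0.11, adjusted p = 4.85e-06) on HFD, and *Egln3*, a prolyl hydroxylase that marks the factor for degradation, by 1.73 (SE 0.27, adjusted p = 6.25e-06) and 2.41 (SE 0.29, adjusted p = 4.13e-08). Both also rose with CL on HFD, by 0.42 and 1.11, the same comparisons in which *Vegfa* fell. *Ppargc1b*, a coactivator, fell in C-3BO mice on HFD (-0.56) and with CL on HFD (-0.87).

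Of 20 tested genes induced by hypoxia, 3 rose and 3 fell in C-3BO mice on chow, 5 rose and 4 fell in C-3BO mice on HFD, and 4 rose and 2 fell with CL on each diet. The counts in C-3BO mice were near the shares of all tested genes, 15.8% and 15.9% on chow and 19.3% and 15.5% on HFD. With CL those shares were 9.16% and 6.13% on chow and 12.7% and 10.8% on HFD. In these 4 comparisons the list median lay between -0.07 and 0.18 on the log2 scale. *Pdk1*, a kinase that inhibits pyruvate dehydrogenase, rose with CL by 0.63 (SE 0.14, adjusted p = 0.00116) on chow and 0.68 (SE 0.14, adjusted p = 0.000435) on HFD, whereas *Adm*, the adrenomedullin gene, fell in C-3BO mice with -0.97 (SE 0.28, adjusted p = 0.00707) and -1.31 (SE 0.27, adjusted p = 0.00024). On HFD *Pdk1* fell in all 4 kinds of mice, with -1.24 in control, -1.44 in C-3BO, -1.10 in saline and -1.05 in CL mice. On HFD, *Pdk1* and *Aldoa*, enzymes also expressed in skeletal muscle, fell along with the muscle markers in uninjected mice, whose part in this was not tested. In saline and CL mice, where *Pdk1* fell too, none of the 10 muscle markers was called between diets by edgeR or DESeq2. Their median log2 fold change there was -1.03 and 1.98.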
